A study of Homo sapiens with 22 samples.

Results

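Actinomycin D stops RNA synthesis, so a transcript that is still made at 0 h can only persist or be lost afterwards. The comparison described here asked whether transcripts were lost to the same extent after 2 h of the drug in HCT116 and LS180, both human cell lines from colorectal cancer. It used 12 of the 22 libraries of a study on the RNA-binding protein Staufen1 and the FOXA1-regulated transcriptome. The groups were HCT116 after 2 h, HCT116 at 0 h, LS180 after 2 h and LS180 at 0 h of 5 µg/ml actinomycin D, with 3 libraries each, chosen by line and time alone. Total RNA was sequenced in all of them, and no other agent or gene alteration is named for them. Libraries of both lines at 4 h serve only to show levels, and those of the siRNA experiment were not used. Of 57820 genes in the tables, 16957 had enough counts to be tested. The value followed is the difference between the 2 h changes, HCT116 minus LS180, on the log2 scale. A positive difference means that a larger share of the 0 h level was left in HCT116. Each line is a single established line, and whether the libraries of a group are separate cultures is not in the labels, so p-values cover only the spread between these libraries.

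A transcript's level depends on how fast it is made and how fast it is destroyed. Most mRNAs are degraded by shortening of the poly(A) tail by the CCR4-NOT and PAN2-PAN3 deadenylases, removal of the cap and digestion from both ends. Transcripts of immediate early genes, feedback inhibitors, cytokines and many transcription factors are short-lived, and a part of them carry AU-rich elements in the 3′ untranslated region (3′ UTR) that recruit the decay machinery. Replication-dependent histone mRNAs lack a poly(A) tail, end in a conserved stem-loop and are destroyed quickly when DNA synthesis stops. Ribosomal protein and oxidative phosphorylation mRNAs are long-lived.

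The 12 libraries held between 47842278 and 60854026 expected counts each, and levels are given as CPM, counts scaled to a common library total. As counts were scaled to the transcripts present in each library, a change of CPM is relative to what remained and not an absolute loss, and fewer cells and less RNA per cell cannot be told apart. The epithelial markers CDH1, EPCAM, KRT8, KRT18 and KRT19 summed to 4390 to 4470 CPM in HCT116 at 2 h, 4060 to 4420 in HCT116 at 0 h, 3580 to 4050 in LS180 at 2 h and 3420 to 3650 in LS180 at 0 h. Mucin-line markers (MUC2, MUC5AC, MUC5B, TFF3 and AGR2) summed to 0.0182 to 0.23 CPM over the HCT116 libraries and to 976 to 1310 CPM over those of LS180. Immune markers summed to at most 2.06 CPM in HCT116 and to 49.5 to 76.2 CPM in LS180, nearly all of it LYZ, and fibroblast markers to 5.32 to 9.19 CPM over all libraries; their part in the results was not tested. Endothelial markers summed to 0.404 to 0.769 CPM. The HCT116 libraries numbered 1 stood apart, with a median absolute log2 gap to the other libraries of their group of 0.118 at 2 h and 0.115 at 0 h, against 0.05 to 0.08 for the other 10 libraries.

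Of the transcripts whose loss differed between the lines, most kept a larger share of their 0 h level in HCT116 than in LS180. After 2 h, 960 genes had fallen at least 2-fold in HCT116 and 1581 in LS180 (edgeR adjusted p under 0.05), which is 5.66% and 9.32% of the genes tested. Rises of at least 2-fold were called for 51 genes in HCT116 (0.301%) and 66 in LS180 (0.389%). Among the 11441 genes of at least 1 CPM at 0 h in both lines, 653 had a log2 change of -1 or less in HCT116 and 1155 in LS180, and 180 in HCT116 against 376 in LS180 had one of -2 or less. The difference between the changes passed the threshold for 1370 genes (8.08%). It was positive for 1277 of them (7.53% of all tested) and negative for 93 (0.548%). At least 2-fold differences were called for 186 genes in the positive direction (1.1%) and 41 in the negative one (0.242%), and among the 9363 genes of at least 5 CPM at 0 h in both lines for 119 (1.27%) and 15 (0.16%).

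How the calls split depends on the scale, because the median difference over all genes was 0.045 log2 in this fit and moved by between -0.115 and 0.058 over the alternatives, with a shift of -0.114 when short noncoding RNA genes were removed before scaling. With those genes removed, 759 genes were called in the positive and 233 in the negative direction, and with no filter on low counts 869 and 357, so that the positive share was 76.5% and 70.9% instead of 93.2%. Without the HCT116 2 h library numbered 1 the counts were 856 and 337 (71.8% positive), and without both HCT116 libraries numbered 1 they were 1632 and 152. With the replicate number as a block within line they were 1719 and 183. Leaving out any other single 2 h library gave 617 to 660 positive and 120 to 145 negative calls. In all 26 alternatives to the fit, 467 of the positive calls held, 134 of them at least 2-fold in the main fit, and 22 of the negative calls, 12 of them at least 2-fold.

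Most of the positive differences were losses that were smaller in HCT116, not gains. Of the 1250 positive calls among genes of at least 1 CPM in both lines, 918 had fallen in both lines and 275 had fallen in LS180 without a called change in HCT116, while 34 had risen in HCT116 relative to the rest and fallen in LS180. Of the 71 negative calls in the same set, 43 had fallen in both lines and 20 had fallen in HCT116 alone by the test.

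**Figure D1:**
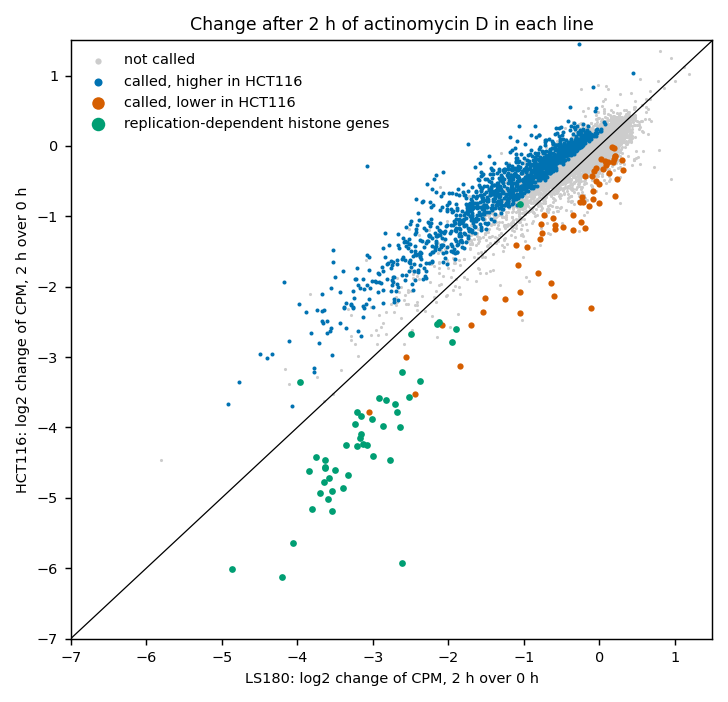
Log2 change of CPM between 2 h and 0 h of actinomycin D in HCT116 (vertical axis) against LS180 (horizontal axis) for the 11441 genes of at least 1 CPM at 0 h in both lines, 2 of which lie outside the axes. Each point is a gene, the line marks equal change, and colours mark called genes and replication-dependent histone genes. Points of called genes lie mostly above the line at strong losses, while the histone genes lie below it.

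Outside the histone genes, differences were called mostly among transcripts that were lost. There the median difference was 0.95 for the 37 genes whose mean log2 change was below -3, 0.74 for the 166 genes between -3 and -2 and 0.56 for the 631 genes between -2 and -1. It was 0.32 for the 986 genes between -1 and -0.5, 0.10 between -0.5 and 0, and 0.01 for the 6284 genes above 0. The share called in the positive direction was 62.2%, 62% and 57.2% in the first 3 of these classes and 0.557% in the last. In the class between -2 and -1 the median change was -1.10 in HCT116 and -1.63 in LS180. With the histone genes included, the class below -3 held 76 genes with a median difference of -0.67, of which 30.3% were called positive and 17.1% negative.

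Genes with few exons held a larger share of positive calls. By the main coding transcript of GENCODE 29, 33.6% of 422 genes with 2 exons and 25.6% of 180 genes with 1 exon were called positive, against 7.68% of 3127 genes with 11 to 20 exons and 4.69% of 1429 genes with over 20. The median changes ran the same way, with -0.41 in HCT116 and -0.66 in LS180 for 2-exon genes and 0.07 and 0.06 for genes with over 20. The order was kept without zinc finger (ZNF) and histone genes, with 34.2% of the 2-exon genes and 4.71% of the genes with over 20 called. Genes called positive also had longer 3′ UTRs, with a median of 1564 bases against 1091 bases for genes without a call.

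**Figure D2:**
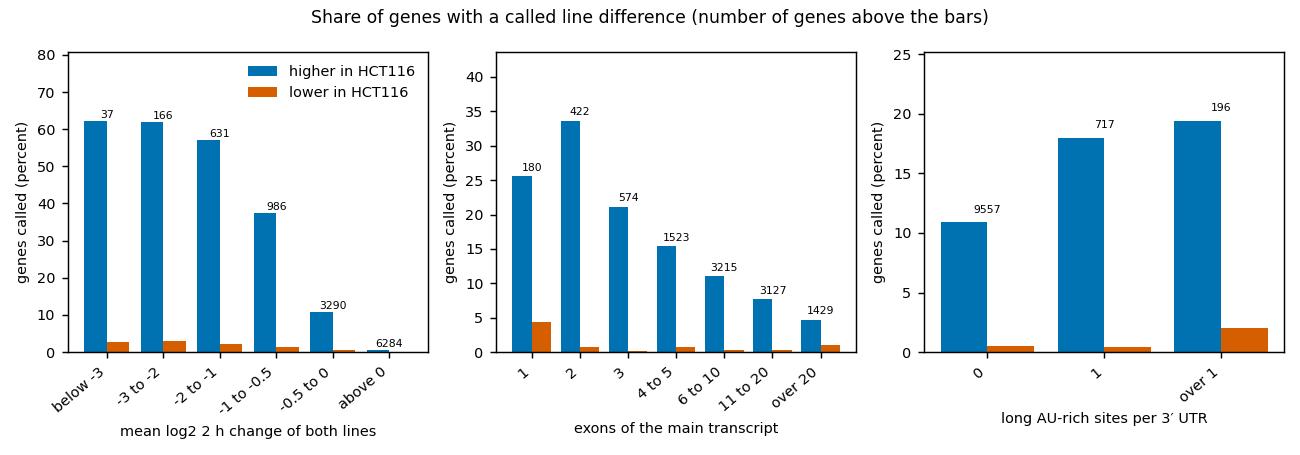
Percent of genes with a called line difference (blue, higher in HCT116; orange, lower in HCT116) by the mean 2 h change of both lines without histone genes, by the number of exons and by the number of TTATTTATT sites in the 3′ UTR, with the number of genes above each pair of bars. The share called higher in HCT116 is 62.2% in the class of strongest loss, 33.6% in genes with 2 exons and 19.4% in genes with over 1 site.

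The long AU-rich core TTATTTATT was searched on the transcript strand of each 3′ UTR. It stood in 13.9% of the genes called positive, 12.1% of those called negative and 8.03% of the genes without a call. Of 9557 genes with no such site 10.9% were called positive, of 717 genes with a single site 18%, and of 196 genes with more sites 19.4%. Sites from genes on either side of the comparison are shown because the same core occurred in both, with the core in capitals and 10 bases on each side, as in GENCODE 29 (GRCh38).
MAFF, chromosome 22, plus strand: tccccactgtTTATTTATTgcacggatct
MAFF, chromosome 22, plus strand: ctcctagaatTTATTTATTtcctgactta
PPM1D, chromosome 17, plus strand: tgagtgtattTTATTTATTtattattttg
EPHA2, chromosome 1, minus strand: actggggactTTATTTATTtctagttctt
REL, chromosome 2, plus strand: tgatatataaTTATTTATTttgccctttt
MAP4K5, chromosome 14, minus strand: tatttaatccTTATTTATTaatctcttgc

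Of these genes, MAFF (log2 difference 1.55), PPM1D (1.55) and EPHA2 (1.11) were called positive, and REL (-0.54) and MAP4K5 (-0.55) negative. The first MAFF site begins at base 1046 and the second at base 1535 of a 3′ UTR of 1633 bases, and the PPM1D site at base 1238 overlaps a second one at base 1242. A match of these letters is a description and not evidence of binding.

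Among p53 target genes, 10 of 27 tested were called positive (37%) and none negative. Over all genes tested 7.53% were called positive, and 11.8% of those of at least 5 CPM at 0 h in both lines. To the latter set 26 of the 27 belong. The list's median change was -0.34 in HCT116 and -0.65 in LS180. Of genes of at least 1 CPM in both lines with a mean change between -1 and -0.5, 37.4% were called positive. Between -0.5 and 0 the share was 10.9%. The list's median difference was 0.35, with medians of 79.1% of the 0 h level left in HCT116 and 63.9% in LS180. CDKN1A encodes p21, the inhibitor of cyclin-dependent kinases, and lies on chromosome 6 at 36676460 to 36687339 (GRCh38). It stood at 193, 154 and 155 CPM in the HCT116 libraries after 2 h and 255, 190 and 203 CPM at 0 h, and in LS180 at 39.9, 39.3 and 38.4 CPM after 2 h and 161, 166 and 165 CPM at 0 h. The 2 h and 0 h libraries of HCT116 overlapped, though each 2 h library lay below the 0 h library of the same number. Every LS180 library at 2 h lay far below those at 0 h. Thus 77.4% of the 0 h level was left in HCT116 and 23.9% in LS180, a log2 difference of 1.69 ± 0.14 (SE, n = 3 per group, edgeR adjusted p = 5.48e-06).

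BTG2, an antiproliferative protein that binds the CCR4-NOT deadenylase, had 11.8, 10.1 and 10.1 CPM in HCT116 at 2 h and 42.6, 29.3 and 28.5 CPM at 0 h. In LS180 it had 2.84, 2.33 and 2.82 CPM at 2 h and 31.6, 29.7 and 30.9 CPM at 0 h. The 0 h levels of the lines overlapped and the 2 h levels did not. With a difference of 1.87 ± 0.20 (edgeR adjusted p = 3.48e-05) it had the largest positive value among the 1144 called genes of at least 5 CPM at 0 h in both lines whose 2 h libraries lay apart between the lines. Pseudogenes, unnamed clones, short noncoding RNAs and mitochondrially encoded genes were left out of these 1144. PPM1D, the phosphatase that turns the p53 response off, had 40.9, 38.5 and 36.3 CPM in HCT116 at 2 h against 71.4, 65.0 and 62.8 CPM at 0 h, and 5.97, 5.85 and 6.0 CPM in LS180 at 2 h against 28.4, 30 and 31.6 CPM at 0 h. So 58.1% was left in HCT116 and 19.8% in LS180 (difference 1.55 ± 0.09, edgeR adjusted p = 5e-07), with no overlap between the lines. The exonuclease AEN (0.59), the stress sensor GADD45A (1.19), the polo-like kinase PLK2 (1.02) and the BH3-only protein BBC3 (0.74) were also called positive. The list's count of positive calls was between 7 and 17 in the alternatives, with 16 of 27 without the HCT116 libraries numbered 1.

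Immediate early transcription factors fell in nearly all cases in both lines, 23 of 24 in HCT116 and 23 of 24 in LS180. For the difference 10 were called positive (41.7%) and 2 negative (8.33%), against 7.53% and 0.548% of all genes tested. The list's median change was -1.71 in HCT116 and -2.05 in LS180. In the class of genes with a mean change between -2 and -1, 57.2% were positive. Small Maf proteins, partners of basic leucine zipper factors, were among the positive members of the list. MAFF had 4.71, 4.46 and 4.14 CPM in HCT116 at 2 h and 8.99, 7.24 and 6.86 CPM at 0 h, against 0.989, 1.18 and 1.11 CPM in LS180 at 2 h and 5.32, 5.72 and 5.67 CPM at 0 h. The lines overlapped at neither time, and 57.5% was left in HCT116 against 19.6% in LS180 (difference 1.55 ± 0.17, edgeR adjusted p = 3.48e-05). MAFG (1.13) and the AP-1 subunit FOSL2 (1.00) differed the same way. The negative members, named after their values were seen, were EGR1 (-0.91, edgeR adjusted p = 0.0434) and IER2 (-0.46, edgeR adjusted p = 0.00885). The list's median was 0.48 and lay between 0.30 and 0.63 in the alternatives.

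Krüppel-like transcription factors (KLF) all had a positive difference, and 7 of 11 were called (63.6%). Positive calls made up 7.53% of all genes tested and 57.2% of the class with a mean change between -2 and -1. Within the KLF list the losses were of that order. A median of 44.6% of the 0 h level was left in HCT116 and 29.4% in LS180. KLF4, a factor of epithelial differentiation, had 9.28, 9.90 and 9.0 CPM in HCT116 at 2 h against 42.8, 48.1 and 47.7 CPM at 0 h, and 1.63, 1.36 and 1.46 CPM in LS180 at 2 h against 12.6, 13 and 12.9 CPM at 0 h. It fell in both lines, to 20.3% in HCT116 and 11.6% in LS180 (difference 0.81 ± 0.11, edgeR adjusted p = 0.000201). KLF10 (1.61), KLF9 (1.04) and KLF3 (0.73) were called too. The number called was 4 when the HCT116 2 h library numbered 2 or the LS180 2 h library numbered 1 was left out.

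Feedback inhibitors of the ERK pathway, the mitogen-activated kinase cascade downstream of RAS, were lost strongly in both lines, and all 16 tested fell in each. Of these, 8 were called positive (50%) and 2 negative (12.5%), with a median difference of 0.57. Over all genes tested the shares were 7.53% and 0.548%. In the class with a mean change between -2 and -1 they were 57.2% and 2.06%. DUSP6, a phosphatase of ERK, had 8.54, 8.04 and 8.61 CPM in HCT116 at 2 h and 81.3, 88.3 and 88.6 CPM at 0 h. In LS180 it had 2.17, 2.35 and 3.01 CPM at 2 h and 63.0, 69.6 and 74.3 CPM at 0 h. What was left was 9.76% in HCT116 and 3.65% in LS180 (difference 1.42 ± 0.13, edgeR adjusted p = 1.04e-05). The ERK phosphatases DUSP5 (1.42) and DUSP4 (1.15), the receptor kinase inhibitor ERRFI1 (1.02) and the Sprouty protein SPRY2 (1.53) had like differences.

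The same family held members that went the other way. DUSP1 averaged 1.01 CPM in HCT116 at 2 h and 8.90 at 0 h, against 0.934 CPM in LS180 at 2 h and 3.37 at 0 h, a difference of -1.28 ± 0.15 (edgeR adjusted p = 7.99e-05). DUSP2 had a difference of -0.73 ± 0.15 (edgeR adjusted p = 0.00494). DUSP1 was named after its value was seen.

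KRAB zinc finger genes encode repressors of transposable elements, and 79 of 191 (41.4%) were called positive and 3 negative. This compares with 7.53% and 0.548% of all genes tested. The median share left was 56.9% in HCT116 and 39.1% in LS180, and the median difference was 0.51, between 0.35 and 0.53 in the alternatives. Genes lost to a like extent had like shares. Of genes of at least 1 CPM in both lines with a mean change between -2 and -1, 57.2% were called positive. Between -1 and -0.5 the share was 37.4%. ZNF440 had 20, 20.4 and 20 CPM in HCT116 at 2 h and 30.6, 27.1 and 25.7 CPM at 0 h, against 8.13, 7.85 and 8.24 CPM in LS180 at 2 h and 36.1, 36.5 and 38.3 CPM at 0 h. LS180 was the higher line at 0 h and the lower one at 2 h, without overlap at either time (difference 1.73 ± 0.09, edgeR adjusted p = 1.61e-07). ZNF436 (1.37), ZNF791 (1.26) and ZNF100 (1.26) followed. The negative members, named after their values were seen, were ZNF124 (-0.68), ZNF263 (-0.30) and ZNF595 (-0.85). With effective length as an offset 46 members were called positive, and with single 2 h libraries left out between 45 and 49 for 5 of the 6 such libraries, the exception being the HCT116 library numbered 1.

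**Figure D3:**
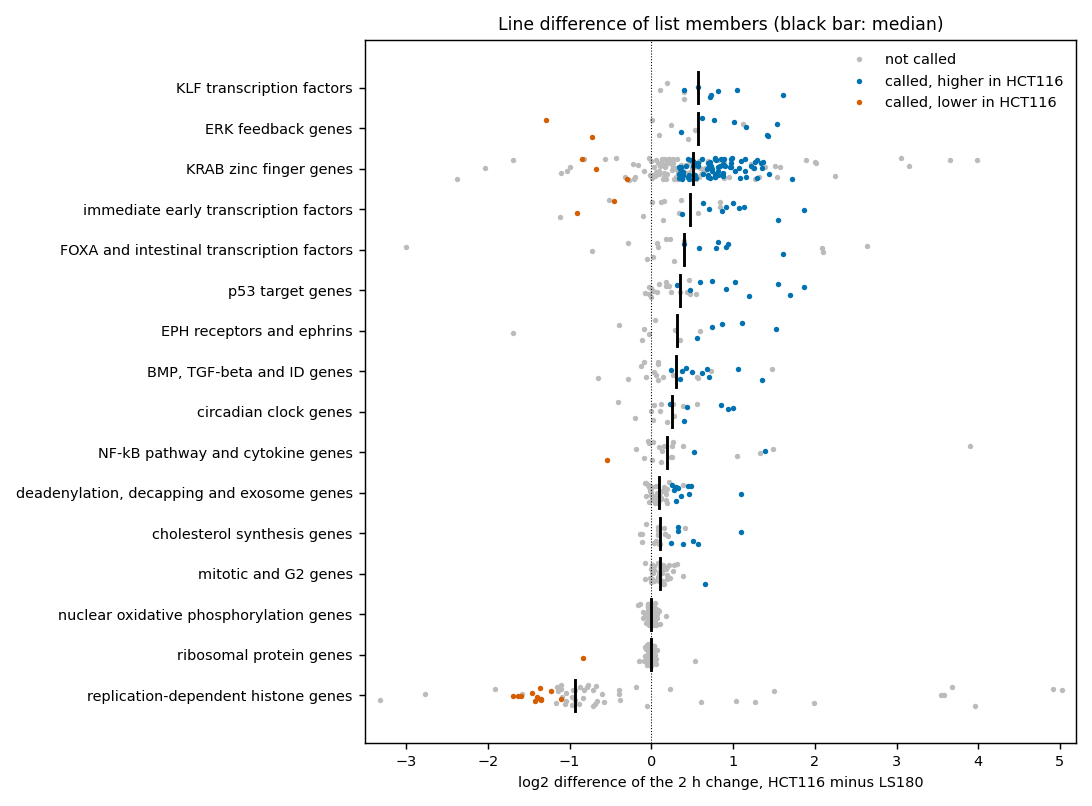
Log2 difference of the 2 h change, HCT116 minus LS180, for the members of 16 gene lists, with each point a gene, a black bar at the list's median and 1 point outside the axis. Blue and orange points passed the test. The medians run between 0.57 for the KLF and ERK feedback lists and -0.93 for replication-dependent histone genes, with ribosomal protein genes at -0.01.

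Genes of the BMP and TGF-beta pathways, which signal through SMAD proteins, gave 10 positive calls among 26 (38.5%) and no negative one. Positive calls made up 7.53% of all genes tested and 37.4% of the class with a mean change between -1 and -0.5. The list does not hold RGMB, a BMP co-receptor with a called negative difference (-2.19). Called members included the ligands BMP2 (1.06) and BMP4 (0.70), the target ID1 (1.36), the decoy receptor BAMBI (0.63), the ubiquitin ligase SMURF1 (0.68) and the signal carriers SMAD3 (0.50) and SMAD5 (0.35). BMP4 had 16.8, 17.7 and 15.9 CPM in HCT116 at 2 h and 90.8, 79.6 and 76.1 CPM at 0 h, against 13.9, 14.8 and 14.7 CPM in LS180 at 2 h and 112, 118 and 115 CPM at 0 h. The lines were close at 2 h and 20.5% was left in HCT116 against 12.6% in LS180. This count is sensitive to scale, with 2 to 4 members called when any single 2 h library of either line was left out.

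The co-receptor of the same ligands, RGMB, showed the largest negative difference of the same 1144 genes. RGMB lies on chromosome 5 at 98768650 to 98798643 (GRCh38). It had 3.59, 4.37 and 3.89 CPM in HCT116 at 2 h and 18.3, 20 and 20.1 CPM at 0 h, against 74.5, 59.6 and 64.2 CPM in LS180 at 2 h and 81.3, 65.9 and 66.4 CPM at 0 h. HCT116 fell without overlap while the LS180 libraries of both times overlapped. The share left was 20.3% in HCT116 and 92.8% in LS180 (difference -2.19 ± 0.15, edgeR adjusted p = 9.66e-07), and the difference was -2.17 without the HCT116 libraries numbered 1.

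Wnt feedback and stem cell genes were divided, with 5 positive (20.8%) and 1 negative call (4.17%) among 24. Over all genes tested the shares were 7.53% and 0.548%. The list's median was -0.03 and lay between -0.18 and 0.12 in the alternatives. AXIN2, a scaffold of the beta-catenin destruction complex and a Wnt target, had 1.80, 1.93 and 1.73 CPM in HCT116 at 2 h and 10.8, 9.87 and 10.2 CPM at 0 h, against 14, 17 and 16.9 CPM in LS180 at 2 h and 200, 210 and 202 CPM at 0 h. It fell to 17.8% in HCT116 and 7.83% in LS180 (difference 1.18 ± 0.12, edgeR adjusted p = 1.95e-05). DKK1, a secreted Wnt inhibitor, was the negative call, with 36.3, 30.8 and 31.8 CPM in HCT116 at 2 h and 156, 140 and 137 CPM at 0 h, against 7.23, 9.83 and 9.57 CPM in LS180 at 2 h and 11.1, 14.7 and 14.4 CPM at 0 h. The share left was 22.9% in HCT116 and 66.2% in LS180, and the difference was -1.53 ± 0.16 (edgeR adjusted p = 2.95e-05). The receptor EPHB3 (1.52), also an EPH family member, and the ubiquitin ligase ZNRF3 (0.59) sided with AXIN2, as did FRAT2 (1.74), a GSK3-binding Wnt activator outside the list. The count of 5 was 3 without the HCT116 2 h library numbered 2 or the LS180 2 h library numbered 1 or 2.

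In the EPH receptor and ephrin family 5 of 14 genes were called positive (35.7%, against 7.53% of all genes tested) and none negative. The family's median change was -0.45 in HCT116 and -0.65 in LS180. In the class with a mean change between -1 and -0.5, the positive share was 37.4%, near that of the family. EPHA2 had 104, 105 and 98.3 CPM in HCT116 at 2 h and 167, 149 and 160 CPM at 0 h, against 33.4, 41.7 and 43.6 CPM in LS180 at 2 h and 128, 142 and 126 CPM at 0 h. HCT116 kept 64.5% and LS180 29.9% (difference 1.11 ± 0.12, edgeR adjusted p = 2.71e-05). EFNB2 (0.87) and EPHA4 (0.74) differed likewise.

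Of the FOXA and intestinal transcription factors, 7 of 21 were called positive (33.3%, against 7.53% of all genes tested) and none negative. The list's median change was -0.91 in HCT116 and -1.45 in LS180. Positive calls made up 37.4% of the class with a mean change between -1 and -0.5 and 57.2% of that between -2 and -1. Called or not, only 7 of the 21 had at least 5 CPM at 0 h in both lines. Without the HCT116 2 h library numbered 2, 4 were called. FOXA1, the pioneer factor of the study's title, had 0.478, 0.726 and 0.522 CPM in HCT116 at 2 h and 3.27, 2.45 and 2.25 CPM at 0 h, against 8.75, 8.80 and 9.01 CPM in LS180 at 2 h and 41.2, 37.9 and 39.6 CPM at 0 h. It fell to 21.5% in HCT116 and 22.4% in LS180, and the difference of -0.06 ± 0.19 did not pass the test (edgeR adjusted p = 0.997). FOXA3 had 1.88, 1.36 and 1.64 CPM in HCT116 at 2 h and 4.68, 3.44 and 3.28 CPM at 0 h, against 0.795, 1.14 and 0.942 CPM in LS180 at 2 h and 7.31, 6.98 and 6.25 CPM at 0 h. Its difference of 1.61 ± 0.24 passed (edgeR adjusted p = 0.000589). FOXA2 was at 0 CPM in all HCT116 libraries at 2 h and at most 0.0924 CPM at 0 h, so no fold is given for HCT116. The intestinal factor CDX2 (0.78), the epithelial ETS factor ELF3 (0.91), GATA6 (0.58) and the Notch target HES1 (0.94) were positive. STAU1 (-0.03, edgeR adjusted p = 0.956) and STAU2 (0.06, edgeR adjusted p = 0.845) were not called.

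**Figure D4:**
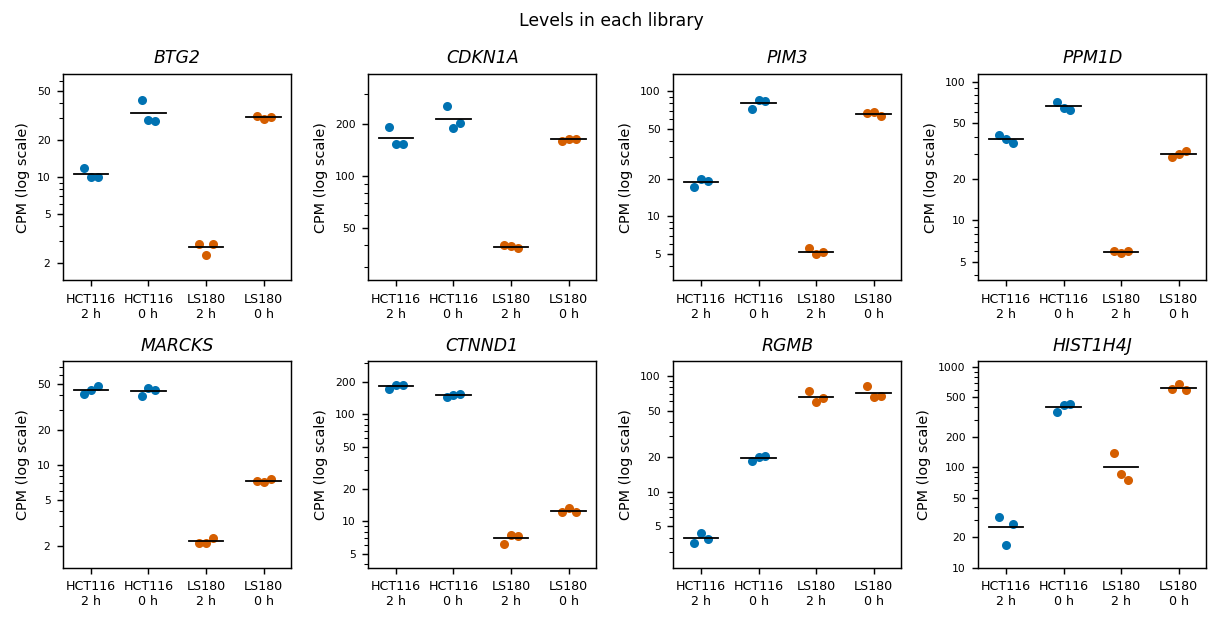
CPM on a log axis in each library (points) with group means (bars) for 8 genes, in HCT116 after 2 h and at 0 h (blue) and in LS180 after 2 h and at 0 h (orange). BTG2, CDKN1A, PIM3 and PPM1D fell less in HCT116, MARCKS and CTNND1 fell in LS180 with no fall called in HCT116, and RGMB and HIST1H4J fell more in HCT116.

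Some transcripts fell in LS180 with no called fall in HCT116. MARCKS, a membrane-bound actin crosslinker and substrate of protein kinase C, had 41.4, 44.4 and 48.1 CPM in HCT116 at 2 h and 39.3, 46.8 and 44.7 CPM at 0 h, against 2.12, 2.13 and 2.34 CPM in LS180 at 2 h and 7.31, 7.12 and 7.52 CPM at 0 h. HCT116 libraries of both times overlapped, and LS180 fell to 30.1% (difference 1.77 ± 0.12, edgeR adjusted p = 9.66e-07). In 29 of the 1144 genes described for BTG2 the test called opposite directions, 28 of them higher after 2 h in HCT116 and lower in LS180. CTNND1, p120 catenin of the adherens junction, had 173, 186 and 188 CPM in HCT116 at 2 h and 144, 153 and 154 CPM at 0 h, against 6.13, 7.40 and 7.33 CPM in LS180 at 2 h and 12.1, 13.3 and 12.3 CPM at 0 h. Its difference was 1.13 ± 0.09 (edgeR adjusted p = 5.15e-06). The chromatin remodelling subunit DPF2 (0.96), the epithelial splicing regulator ESRP1 (0.79), the zinc finger protein ZNF33A (0.74), the DNA-binding protein BANP (0.63) and the RNA-binding protein FXR1 (0.61) followed. Their rises in HCT116 were between 0.16 and 0.28 on the log2 scale, about the median rise of ribosomal protein genes in that line (0.24), and depend on scaling, since 3321 genes were called higher at 2 h in HCT116 with TMM and 58 when ribosomal protein genes set the scale. The exception was SLC35F5, with -0.20 in HCT116 and 0.30 in LS180, named after its value was seen.

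The rest of the 12 largest positive differences came from varied functions. PIM3, a growth-promoting serine and threonine kinase, had 17, 20 and 19 CPM in HCT116 at 2 h and 72.3, 85.1 and 84.3 CPM at 0 h, against 5.53, 4.94 and 5.13 CPM in LS180 at 2 h and 67.4, 67.7 and 63.6 CPM at 0 h. It fell in both lines, to 23.2% in HCT116 and 7.86% in LS180 (difference 1.56 ± 0.11, edgeR adjusted p = 1.11e-06). TNFSF9, the ligand of the costimulatory receptor 4-1BB, kept 21.0% in HCT116 and 6.32% in LS180 (difference 1.73 ± 0.12, edgeR adjusted p = 1.53e-06). The cell cycle protein CDCA4 kept 59.1% in HCT116 and 18.7% in LS180 (1.66 ± 0.09, edgeR adjusted p = 2.7e-07), and the histone reader PHF13 kept 24.6% in HCT116 and 8.54% in LS180 (1.53 ± 0.12, edgeR adjusted p = 3.8e-06). These 12 were chosen by the size of the difference, and their differences were between 1.49 and 2.00 without the HCT116 libraries numbered 1.

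MYC, a growth regulator with a well known short-lived mRNA, had 38.9, 39.3 and 36.1 CPM in HCT116 at 2 h and 507, 461 and 480 CPM at 0 h, against 9.35, 7.70 and 8.15 CPM in LS180 at 2 h and 276, 254 and 235 CPM at 0 h. It kept 7.89% in HCT116 and 3.29% in LS180 (difference 1.26 ± 0.10, edgeR adjusted p = 5.15e-06). The survival gene MCL1 kept 45.8% in HCT116 and 29.1% in LS180 (0.65 ± 0.07, edgeR adjusted p = 3.48e-05). Of 15 cyclin and CDK inhibitor genes 4 were called (26.7%, against 7.53% of all genes tested), all positive, including CDKN1B (0.68) and CCNE1 (0.58). In the NF-kB list, 2 of 22 genes were positive (9.09%, near the 7.53% of all genes tested, and between 1 and 4 genes in the alternatives), among them the pathway inhibitor NFKBIA at 1.39 ± 0.15 (edgeR adjusted p = 3.57e-05), and the subunit REL was negative. Clock genes gave 6 positive calls among 18 (33.3%, against 7.53% of all genes tested), such as NFIL3 (1.00) and BHLHE40 (0.85). Their median change was -0.27 in HCT116 and -0.51 in LS180. Positive calls made up 10.9% of the class with a mean change between -0.5 and 0 and 37.4% of that between -1 and -0.5. The clock gene count was 2 or 3 when any single 2 h library was left out or the effective length was an offset. It was also 2 or 3 without the short noncoding RNA genes or with no filter on low counts.

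Of 49 deadenylation, decapping and exosome genes, 9 fell and 17 rose relative to the rest in HCT116, and 16 fell and 10 rose in LS180. The median share left was 107.5% in HCT116 and 98.6% in LS180. For the difference 10 were called positive (20.4%) and none negative, against 11.8% positive among the genes of at least 5 CPM at 0 h in both lines, to which all of them belong. TOB1, an adaptor that brings CCR4-NOT to mRNAs, had 14.9, 13.6 and 13.8 CPM in HCT116 at 2 h and 30.3, 26.0 and 23.8 CPM at 0 h, against 7.19, 7.37 and 7.78 CPM in LS180 at 2 h and 29.2, 31.6 and 30 CPM at 0 h. The lines overlapped at 0 h and not at 2 h (difference 1.10 ± 0.11, edgeR adjusted p = 2.42e-05). Its relative TOB2 (0.45), the exosome subunit EXOSC3 (0.48) and the decapping factor DCP1A (0.30) had smaller differences. The call of DCP1A held in 13 of 26 alternatives. The list's median was 0.09 and lay between -0.03 and 0.15 in the alternatives, and 2 or 3 members were called when any single 2 h library was left out. Of 18 nonsense-mediated and Staufen decay factors SMG8 (0.96), SMG9 (0.58) and SMG1 (0.34) were positive (16.7%, against the same 11.8%). The call of SMG1 held in 10 of 26 alternatives and was lost without any single 2 h library. Among binders of AU-rich and modified mRNA, ZFP36L2 (1.10) and YTHDF2 (0.40) were positive out of 17, a share of 11.8% that equals that of all genes of at least 5 CPM in both lines. YTHDF2 lost its call without any single 2 h library other than the HCT116 one numbered 1.

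In cholesterol metabolism 7 of 25 genes were positive (28%), and 3 or 4 when any single 2 h library was left out. Of all genes of at least 5 CPM at 0 h in both lines, to which these belong, 11.8% were positive. INSIG1, a sensor that restrains sterol synthesis, had 43.9, 47.9 and 48.6 CPM in HCT116 at 2 h and 69.8, 75.7 and 71.4 CPM at 0 h, against 163, 163 and 163 CPM in LS180 at 2 h and 344, 376 and 403 CPM at 0 h. It fell in both lines without overlap between the times, to 64.7% in HCT116 and 43.5% in LS180 (difference 0.57 ± 0.08, edgeR adjusted p = 0.000447). HMGCS1, an enzyme of sterol synthesis, was called too (0.51). In the hypoxia and glycolysis list 1 of 32 genes was positive and 1 negative (3.12% each, against 7.53% and 0.548% of all genes tested). NDRG1 was the positive one (0.24), and its call held in 8 of 26 alternatives. The vasodilator peptide gene ADM was negative, with 2.80, 2.10 and 2.72 CPM in HCT116 at 2 h and 12.6, 13.6 and 13.4 CPM at 0 h, against 2.42, 1.82 and 2.12 CPM in LS180 at 2 h and 4.50, 4.08 and 4.55 CPM at 0 h (difference -1.33 ± 0.17, edgeR adjusted p = 0.000112).

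Replication-dependent histone genes, copied in S phase, had the most negative calls of the lists examined. Of 62 tested, 51 fell in HCT116 and 60 in LS180, the median change was -3.96 in HCT116 and -3.27 in LS180, and the median share left was 6.4% in HCT116 and 10.3% in LS180. The difference was negative by test for 12 (19.4%, against 0.548% of all genes tested) and positive for none, though 12 others had an estimate above 0. The list's median was -0.93 and lay between -1.32 and -0.63 in the alternatives. HIST1H4J, a histone H4 gene on chromosome 6 at 27824108 to 27824480 (GRCh38), had 32.0, 16.8 and 27.2 CPM in HCT116 at 2 h and 362, 420 and 434 CPM at 0 h, against 140, 86.6 and 75.5 CPM in LS180 at 2 h and 609, 679 and 591 CPM at 0 h. In both lines the library numbered 1 was the highest at 2 h, and the lines did not overlap (difference -1.36 ± 0.30, edgeR adjusted p = 0.0103). HIST2H2AC, a histone H2A gene, had 6.35, 3.52 and 4.68 CPM in HCT116 at 2 h and 144, 146 and 146 CPM at 0 h, against 20.1, 11.9 and 12 CPM in LS180 at 2 h and 167, 174 and 169 CPM at 0 h. The difference was -1.37 ± 0.25 (edgeR adjusted p = 0.00296). HIST2H4A (-1.69), HIST1H2BO (-1.64), HIST1H4B (-1.59), HIST1H2AH (-1.47), HIST2H3D (-1.43), HIST1H4K (-1.41), HIST1H2AD (-1.36) and HIST1H2AI (-1.35) were called too.

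The number of histone genes called depends on a few libraries. It was 39 without the HCT116 libraries numbered 1, 30 without the 2 h one alone, 21 without the 0 h one, 18 without the LS180 2 h library numbered 2 and 44 with no filter on low counts. It was 7 without the LS180 0 h library numbered 1, without that numbered 3 or without the HCT116 0 h library numbered 3, and 8 without the LS180 0 h library numbered 2 or the HCT116 2 h library numbered 3. Copies of near-identical sequence share reads in such counts, so the levels of single copies are uncertain. Replacement histone genes, made at all phases and polyadenylated, were called in neither direction (0 of 11 by edgeR, with 1 at an unadjusted p under 0.05, and 1 by DESeq2).

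The stem-loop at the end of these mRNAs was searched on the transcript strand by its conserved positions (GG, any 2 bases, CTT, any base, T, any base, AG, any 2 bases, CC). It stood in 14 of the 19 replication-dependent histone genes for which GENCODE 29 gave a 3′ UTR, in 4 of 4 such genes with a called difference, and in 37 of all 13526 tested genes with a 3′ UTR (0.274%). The 4 called genes and the replacement gene H2AFX, which also carries the element, are shown with the match in capitals.
HIST1H2AI, chromosome 6: ccaaaGGCTCTTTTCAGAGCCacctacaat
HIST1H4J, chromosome 6: taaaaGGCCCTTTTCAGGGCCacccta
HIST2H2BE, chromosome 1: ccaaaGGCTCTTTTCAGAGCCacccaccta
HIST4H4, chromosome 12: caaaaGGCCCTTTTCAGGGCCcccaaactg
H2AFX, chromosome 11: acaaaGGCCCTTTTAAGGGCCaccaccgcc

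H2AFX is also made as a longer polyadenylated mRNA, and it averaged 99.1 CPM in HCT116 at 2 h and 149 CPM at 0 h, against 98.0 CPM in LS180 at 2 h and 156 CPM at 0 h. It fell in both lines by less than the histone genes above, and its difference of 0.09 ± 0.12 did not pass the test (edgeR adjusted p = 0.860). HIST2H2BE (-1.23) and HIST4H4 (-1.10) were called.

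Outside the histone genes and the genes named above, other called negative differences of at least 5 CPM, chosen after their values were seen, included those of the corepressor BCOR (-0.82), the centriole protein CEP164 (-0.81), the mitochondrial tRNA ligase MARS2 (-0.66), the growth arrest gene GADD45B (-0.61), the histone methyltransferase KMT2C (-0.58) and the kinase MAP4K5. MARS2 had 6.18, 6.06 and 6.39 CPM in HCT116 at 2 h and 27.7, 27.7 and 28.3 CPM at 0 h, against 19.1, 18 and 17.2 CPM in LS180 at 2 h and 50.1, 51.8 and 53.1 CPM at 0 h. It kept 22.3% in HCT116 and 35.1% in LS180 (edgeR adjusted p = 4.47e-05). With effective length as an offset BCOR was at -0.47, CEP164 at -0.54 and KMT2C at -0.24, and none of these 3 passed.

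Ribosomal protein and nuclear oxidative phosphorylation genes had medians near 0. Ribosomal protein genes had a median difference of -0.01 and 1 negative call among 85, and their median under other scales lay between -0.16 and 0.04. Nuclear oxidative phosphorylation genes had a median of 0.00 and no call among 78, with 1 at an unadjusted p under 0.05 by edgeR and none by DESeq2. Mitochondrial ribosomal protein genes had 4 positive calls among 76 (5.26%, against 7.53% of all genes tested), none past 0.32. The count was 0 or 1 when any single 2 h library was left out. In the snoRNA host genes SNHG5 alone was called (-0.29). Box C/D and box H/ACA small nucleolar RNAs gave no call among 30 and 60 by edgeR or by DESeq2, with 3 and 0 at an unadjusted p under 0.05. Their medians were -0.29 for box C/D (between -0.59 and -0.04 in the alternatives) and -0.15 for box H/ACA (between -0.35 and -0.01). Goblet genes such as AGR2, TFF1 and TFF3 passed the filter through LS180, where AGR2 had 1283, 1126 and 1077 CPM at 2 h and 1016, 911 and 986 CPM at 0 h, while in HCT116 it had at most 0.0184 CPM at 2 h and 0.154 CPM at 0 h, so the list's 0 calls among 22 say nothing of HCT116.

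Levels at 4 h of actinomycin D, from a joint scaling of all 18 libraries, are given beside those at 2 h. BTG2 had 6.68, 4.47 and 4.67 CPM in HCT116 and 1.57, 1.35 and 1.4 CPM in LS180 at 4 h. CDKN1A had 169, 116 and 116 CPM in HCT116 and 24.9, 20.1 and 20.5 CPM in LS180. CDCA4 had 24.7, 22.6 and 24.1 CPM in HCT116 and 3.61, 2.99 and 2.38 CPM in LS180. None of these 3 overlapped between the lines at 4 h, while TNFSF9, with 1.12, 0.475 and 0.835 CPM in HCT116 and 0.917, 0.606 and 0.524 CPM in LS180, did. RGMB had 2.56, 2.51 and 2.35 CPM in HCT116 and 79.4, 40.4 and 40.8 CPM in LS180, and the LS180 library numbered 1 lay far above the other two. HIST2H2AC had 3.20, 2.32 and 2.12 CPM in HCT116 and 8.13, 7.16 and 8.73 CPM in LS180. These are levels without a test.

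**Figure D5:**
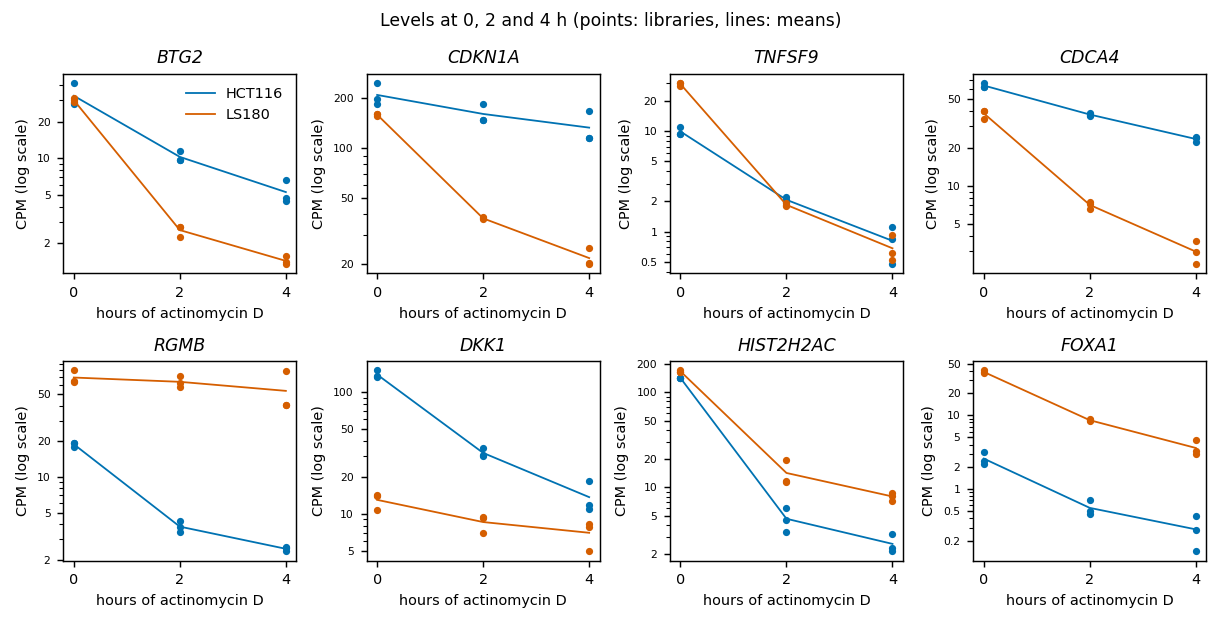
CPM on a log axis at 0, 2 and 4 h of actinomycin D for 8 genes in HCT116 (blue) and LS180 (orange), with points for libraries and lines through the means of 3. BTG2, CDKN1A and CDCA4 drop more steeply in LS180 between 0 and 2 h, RGMB, DKK1 and HIST2H2AC in HCT116, and the lines of FOXA1 run side by side.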

How the data were processed

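Per the labels' protocols, total RNA of cells given actinomycin D was isolated with an RNeasy kit and sequenced as stranded total RNA libraries. The authors deposited RSEM expected counts per gene with an effective length, made with cutadapt, STAR 2.7 and RSEM 1.3.1 on hg19 per the submitters' processing notes. For the annotation release, strand setting and read filters the entry is: not given in the sources used here. Reads that fit several copies are divided among them in such expected counts, which makes near-identical histone genes uncertain.

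Expected counts (6.1% not whole) were rounded to whole numbers. Genes were kept with edgeR's filterByExpr, which left 16957 of 57820, and scaled by TMM. The quasi-likelihood test of edgeR 4.0.16 (R 4.3.3, limma 3.58.1) was fitted to the 12 libraries with 1 mean per group and 8 residual degrees of freedom, with Benjamini-Hochberg adjustment over all genes tested and a threshold of 0.05. The contrast was the 2 h change of HCT116 minus that of LS180, and each line's own change was tested in the same fit. CPM values are on the TMM scale, except the marker sums, which are scaled to library totals without TMM. SE values come from the fit. The procedure was tested on simulated data, in which the share of false calls was above the threshold and small changes were recovered less often than large ones, so calls near the threshold are uncertain. Tables and figures were made with Python 3.11.15, numpy 2.4.6, pandas 2.3.3 and matplotlib 3.10.9.

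Named genes were the 12 largest positive and 12 largest negative called differences at 5 CPM or more at 0 h in both lines with the 2 h libraries of the lines apart, up to 4 members of each list with the smallest adjusted p, up to 6 genes called in opposite directions, STAU1, STAU2 and FOXA1 to FOXA3. Pseudogenes, unnamed clones, short noncoding RNAs and mitochondrially encoded genes were left out of the largest differences and of the opposite calls. Other genes named are further called members of the lists or were chosen after their values were seen. Members and lists were chosen with earlier results of these data known. Gene positions, exons and 3′ UTRs are those of GENCODE 29 (GRCh38), matched by gene ID and symbol, and 99.5% of the coding genes of at least 1 CPM in both lines had such features. Alternatives were other scalings, filters, DESeq2 1.42.0, an effective length offset, all 18 actinomycin D libraries, replicate blocks and the omission of each library. After the data were seen, 2 were added, a median difference of all genes set to 0 and a test against a 1.25-fold difference. That test was left out of the 26 alternatives counted for calls and of the ranges given for lists. A few members of the lists are counted but not reported by name here.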

Additional observations from a re-analysis of the deposited data

Results flagged for a closer look

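The 2 h change differed between HCT116 and LS180, by the test of the difference itself, for 1277 genes in the positive and 93 in the negative direction. Of the 1144 genes described for BTG2, 29 were called in opposite directions. Among the named genes with a larger share left in HCT116, the log2 differences were 1.87 for BTG2, 1.77 for MARCKS, 1.74 for FRAT2, 1.73 for TNFSF9, 1.73 for ZNF440, 1.69 for CDKN1A, 1.66 for CDCA4 and 1.61 for KLF10. They were 1.61 for FOXA3, 1.56 for PIM3, 1.55 for MAFF, 1.55 for PPM1D and 1.53 for PHF13. Of the genes called in opposite directions, CTNND1 was at 1.13, DPF2 at 0.96, ESRP1 at 0.79, ZNF33A at 0.74, BANP at 0.63 and FXR1 at 0.61.

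With a smaller share left in HCT116, RGMB was at -2.19 and DKK1 at -1.53. The histone genes were at -1.69 for HIST2H4A, -1.64 for HIST1H2BO, -1.59 for HIST1H4B, -1.47 for HIST1H2AH, -1.43 for HIST2H3D and -1.41 for HIST1H4K. HIST2H2AC was at -1.37, HIST1H4J at -1.36, HIST1H2AD at -1.36 and HIST1H2AI at -1.35. The 2 h libraries numbered 1 were the highest of their group for these histone genes in both lines.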

How the results depend on the processing

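No gene with a called difference was called in the opposite direction under any alternative, but the counts moved with scale. Positive calls numbered 759 without short noncoding RNA genes, 823 with a filter of 1 CPM throughout a group and 493 in a test against a minimum fold, and 617 to 1349 with a library left out. Negative calls numbered 233, 247 and 31 under the same settings, 201 with DESeq2, 357 with no filter, 183 with a replicate block within line, 152 without the HCT116 libraries numbered 1, and 65 to 337 with a library left out. Positive calls of at least 2-fold numbered 119 without short noncoding RNA genes, 121 with the filter of 1 CPM and 112 to 221 with a library left out. Negative ones numbered 106 with no filter, 23 among genes of at least 1 CPM in both lines, 62 with the block within line, 66 without the HCT116 libraries numbered 1, 22 against the minimum fold and 29 to 74 with a library left out. In HCT116, 635 genes of at least 1 CPM in both lines fell at least 2-fold, 5708 genes fell with scaling to ribosomal protein genes, and genes called higher at 2 h numbered 1138 without TMM, 58 with ribosomal protein scaling, 2208 with no filter and 1694 to 3377 with a library left out. In LS180, 7009 fell with ribosomal protein scaling, and those higher numbered 5137 with RLE factors, 1613 without TMM, 72 with ribosomal protein scaling, 5041 with DESeq2 and 2521 to 4902 with a library left out. The cause was not tested.

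Same-numbered HCT116 libraries at 2 h and 0 h deviated together (correlations 0.67, 0.28 and 0.35), and LS180 ones did not (0.07, 0.09 and -0.15). The numbers thus pair the HCT116 samples by a correlation over 0.1, but not the LS180 ones, and the fit without a block was kept. With the number as a replicate block shared over groups, 1314 positive and 101 negative calls were made, and with a block within line 1719 and 183.

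With effective length as an offset, NEAT1 turned to -0.19, and DCP1A, SMG1, ZNRF3, BHLHE40, NDRG1, MCM10, SNHG5, BCOR, CEP164 and KMT2C lost their calls. So did other counted list members, among them most of the called mitochondrial ribosomal protein genes and the only called ribosomal protein gene. Among the 24 largest differences, calls were lost for HIST1H2AH, HIST2H3D and HIST1H2AI when single libraries were left out, and among the opposite ones for FXR1 without the LS180 2 h library numbered 1. At under 1 CPM the changes rest on few reads.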

Other observations

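Mitochondrially encoded transcripts are made by another polymerase, and 3 of 13 had a called positive difference (23.1%, against 7.53% of all genes tested). MT-CO3 had 450, 407 and 433 CPM in HCT116 at 2 h and 246, 199 and 180 CPM at 0 h, against 164, 170 and 175 CPM in LS180 at 2 h and 135, 116 and 121 CPM at 0 h. It was higher at 2 h in both lines, without overlap between the times, and the log2 difference was 0.59 ± 0.13 (edgeR adjusted p = 0.00896). MT-ND4L (0.56) and MT-ND3 (0.65) were the others. None of the 3 was called without the HCT116 2 h library numbered 3 or without the LS180 2 h library numbered 1, and 1 was without the LS180 2 h library numbered 2 or 3. The long noncoding RNA NEAT1, a scaffold of nuclear paraspeckles, had 19.6, 14.8 and 17 CPM in HCT116 at 2 h and 12.5, 8.01 and 8.0 CPM at 0 h, against 15.3, 15.2 and 16.6 CPM in LS180 at 2 h and 16, 18.4 and 15.4 CPM at 0 h. Its positive difference of 0.92 ± 0.21 (edgeR adjusted p = 0.0114) depends on the treatment of effective length. The call held in 21 of 26 alternatives. It was also lost with all 18 actinomycin D libraries and without the HCT116 2 h library numbered 3 or the LS180 2 h library numbered 1 or 2.

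Of the stress genes, 7 of 26 were called positive (26.9%, against 7.53% of all genes tested). The list's median change was -0.61 in HCT116 and -0.85 in LS180. In the class with a mean change between -1 and -0.5, 37.4% were positive, a larger share than in the list. The list's count was 12, with 2 negative calls, without the HCT116 libraries numbered 1. It was 3 or 4 without the HCT116 2 h library numbered 3 or any LS180 2 h library. DDIT4, an inhibitor of mTORC1, had 7.16, 11.2 and 11.3 CPM in HCT116 at 2 h and 59.8, 83.9 and 86.4 CPM at 0 h, against 5.55, 4.67 and 5.01 CPM in LS180 at 2 h and 95.6, 110 and 102 CPM at 0 h. The HCT116 library numbered 1 was the lowest at both times, and the lines did not overlap (1.38 ± 0.23, edgeR adjusted p = 0.00125). XBP1, the transcription factor of the unfolded protein response, was the negative call (-0.34). Of the epithelial genes, the tight junction protein CLDN4 (1.20) and the transcription factor GRHL2 (0.59) were also positive. E2F7 (1.13), a repressor of S phase genes, and AURKA (0.66), a mitotic kinase, were called. Their lists had 2 of 46 DNA replication genes (4.35%) and 1 of 44 mitotic genes (2.27%) positive, against 7.53% of all genes tested. These counts were between 1 and 11 and between 0 and 9 in the alternatives, with 7 and 4 without the HCT116 libraries numbered 1. AURKA lost its call without any single 2 h library other than the HCT116 one numbered 1.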
